A study of Rattus norvegicus with 12 samples.

Results

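Chemokines are small secreted proteins that draw leukocytes out of the blood, and 7 of their genes were followed here in the kidney cortex of rats given cephaloridine. The 7 genes were Ccl2, Ccl7, Ccl3, Ccl4, Cxcl1, Cxcl2 and Cxcl10. They were taken as every non-control row of the array whose gene name or accession maps to one of these symbols, which gave 8 probes for the 7 genes, among 41012 probes and 35526 genes or unmatched transcripts in all. Ccl7 had 2 probes, the other genes had 1 each, and the Ccl2 probe was spotted 10 times on each array. All 7 genes passed the filter on dim probes and were among the 20758 tested.

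Cephaloridine is a cephalosporin antibiotic that proximal tubule cells take up from the blood and that injures them at high dose. Male Fisher 344 rats aged 8 weeks received a single intravenous injection of cephaloridine in saline, and the kidney cortex was taken 24 h later. The labels name 4 groups of 3 animals, with 1 array per animal: control, given saline alone (0 mg/kg), low dose (150 mg/kg), middle dose (300 mg/kg) and high dose (600 mg/kg). The labels give no genotype or second agent, and the dose is the only stated difference between groups. The stated aim was to profile the kidney below and above the toxic range of the drug.

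Inflammatory chemokines are made by injured epithelium, endothelium and resident macrophages, often under the transcription factor NF-kB after signals such as TNF, IL-1 or damaged cells. The CC chemokines CCL2 and CCL7 draw monocytes through the receptor CCR2, and CCL3 and CCL4 act on monocytes, macrophages and lymphocytes. The rodent CXC chemokines CXCL1 and CXCL2 draw neutrophils through CXCR2, while CXCL10, which is induced by interferons, acts mainly on T cells and natural killer cells through CXCR3.

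The genes sit in clusters in the RefSeq annotation. On chromosome 10, Ccl2 and Ccl7 are neighbours with 0 annotated genes between them, as are Ccl3 and Ccl4. On chromosome 14, Cxcl1 and Cxcl2 are neighbours with 0 genes between them, and 32 annotated genes lie between Cxcl2 and Cxcl10. Promoter sequences of 4 of the 7 genes (Ccl7, Cxcl1, Cxcl2 and Cxcl10) were in the RefSeq promoter table, build GRCr8, and are shown as the regulatory sequence next to the start sites of genes measured here. Each runs 5′ to 3′ over 250 bases before and 50 bases from the annotated start site. Capitals mark matches, on either strand, to the NF-kB consensus.
Ccl7 promoter, chr10:67513845-67514144, plus strand: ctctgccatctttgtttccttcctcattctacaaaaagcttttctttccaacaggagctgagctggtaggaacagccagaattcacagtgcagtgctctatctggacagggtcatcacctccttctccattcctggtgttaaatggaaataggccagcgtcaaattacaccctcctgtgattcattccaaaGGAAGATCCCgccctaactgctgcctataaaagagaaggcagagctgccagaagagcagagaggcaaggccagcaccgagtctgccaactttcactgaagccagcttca
Cxcl1 promoter, chr14:17479272-17479571, minus strand: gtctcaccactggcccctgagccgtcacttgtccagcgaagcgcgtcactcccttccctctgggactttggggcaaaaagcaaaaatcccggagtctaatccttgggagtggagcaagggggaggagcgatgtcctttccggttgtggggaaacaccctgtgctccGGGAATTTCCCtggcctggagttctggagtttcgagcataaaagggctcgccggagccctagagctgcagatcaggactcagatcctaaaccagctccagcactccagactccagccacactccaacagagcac
Cxcl2 promoter, chr14:17467206-17467505, minus strand: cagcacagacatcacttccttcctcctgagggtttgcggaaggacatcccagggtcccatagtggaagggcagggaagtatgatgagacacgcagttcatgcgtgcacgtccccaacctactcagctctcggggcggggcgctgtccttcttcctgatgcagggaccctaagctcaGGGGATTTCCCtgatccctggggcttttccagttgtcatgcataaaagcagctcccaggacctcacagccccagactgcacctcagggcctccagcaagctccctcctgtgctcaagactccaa
Cxcl10 promoter, chr14:15988816-15989115, plus strand: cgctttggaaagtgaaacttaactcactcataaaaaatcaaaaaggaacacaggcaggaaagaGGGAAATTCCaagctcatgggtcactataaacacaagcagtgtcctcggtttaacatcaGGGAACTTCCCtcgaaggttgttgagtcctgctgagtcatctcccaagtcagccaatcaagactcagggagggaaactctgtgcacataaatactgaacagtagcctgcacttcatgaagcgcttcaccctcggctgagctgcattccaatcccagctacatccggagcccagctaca

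All 4 windows held a match to the NF-kB consensus, as did 7.51% of the 33469 rat promoters of the same length. In Cxcl1 it began at position -84 from the start site, in Cxcl2 at -74, in Ccl7 at -59, and Cxcl10 held 2 separate stretches, at -187 and -128. Where matches overlapped, as in Cxcl1, Cxcl2 and the second stretch of Cxcl10, they are shown as 1 stretch. A narrower pattern, GGGA and TTCC set apart by any 2 bases, was met in 3 of the 4, with Cxcl2 the exception, and in 1.3% of all promoters. This pattern was searched first, on both strands, and the wider consensus was added after its matches were seen. The AP-1 pattern TGANTCA was found in Ccl7 and Cxcl10, against 7.33% of all promoters, and did not overlap an NF-kB match. The interferon response pattern, GAAA repeated after any 2 bases, was found in Cxcl10 alone among the 4, at -243, against 3.92% of all promoters. These matches describe letters in the windows, and binding was not measured.

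Values below are relative signals, that is, the processed signal of a probe divided by the 75th percentile of its array. A log2 change is a difference between group means of log2 relative signals, with its limma standard error, and a gene was called at an adjusted p under 0.05 over all 20758 genes tested. Arrays were alike in depth of signal: 59.2% to 63.2% of probes were well above background and 0 spots were saturated. The 10 spots of Ccl2 differed on each array by an SD of 0.051 to 0.084 on the log2 scale, far less than the animals did. All 12 genes of a list of cortex markers, which holds proximal tubule and podocyte genes, were well above background on every array. So were all 7 genes of a list of medulla markers, and detection alone does not tell cortex from medulla. The file headers place the arrays on 4 slides. Slide 1 held controls 1 to 3 and low 1, slide 2 held low 2 and middle 1, slide 3 held low 3 and middle 2, and slide 4 held middle 3 and high 1 to 3. No slide held both a control and a high dose array. Slide 2, with low 2 and middle 1, was the only slide scanned on another day.

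At 600 mg/kg against control, 6 of the 7 chemokines rose and 0 fell, where 34.8% of all tested genes were called and 18% were called higher. The log2 changes ran from 1.41 for Ccl4 to 2.88 for Cxcl2, which was the gene not called. The median of the 6 called genes was 2.29, beside a median of -0.00209 over all tested genes. In these 6 genes each high dose animal lay above each control, which held in that direction for 28.5% of tested genes. Cxcl2 entered the tests only through the high dose group and is described apart. In bulk tissue, more RNA per cell and more cells of a type that makes it cannot be told apart. With the slide as a block, 0 of the 7 were called, beside 2.81% of all tested genes, and with the slide as a random block 4 of 7 were called, beside 24.2%.

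**Figure D1:**
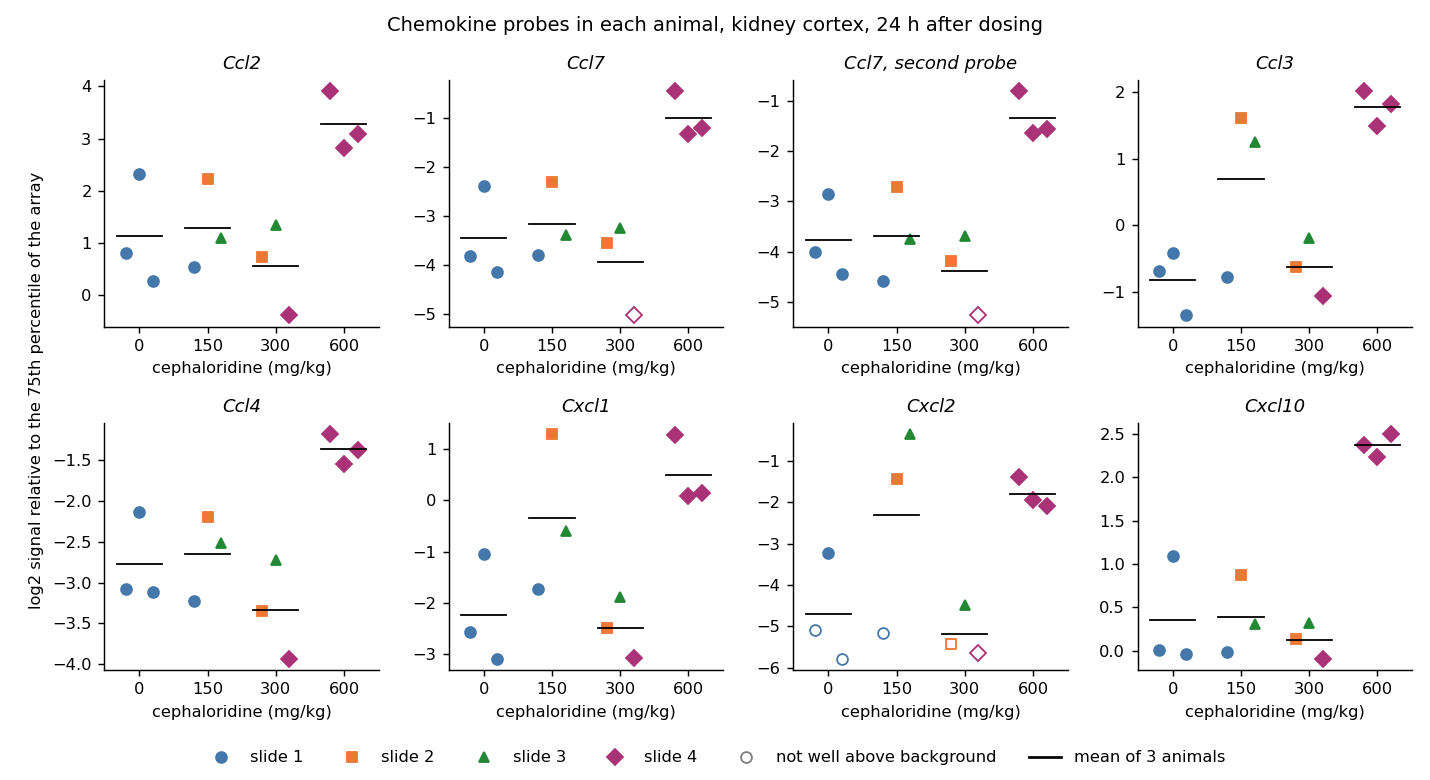
Log2 signal relative to the 75th percentile of the array (vertical axis) for each chemokine probe in each animal, by cephaloridine dose in mg/kg (horizontal axis, 3 animals a dose). Colours and shapes mark the slide, open symbols mark spots not well above background and bars mark means. The high dose animals lie above all controls in every panel, while low 2 reaches the high dose range for Ccl3, Cxcl1 and Cxcl2 and low 3 exceeds it for Cxcl2.

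Ccl2 encodes monocyte chemoattractant protein, the main ligand of CCR2. Its relative signal was 15, 7.06 and 8.49 in the high dose animals, against 1.75, 5.01 and 1.2 in controls. The groups did not overlap, although control 2 stood well above the other controls. The mean was 10.2 ± 4.26 at the high dose and 2.66 ± 2.06 in controls (SD, n = 3 each). Ccl2 rose 4.4-fold (log2 2.14 ± 0.62, adjusted p = 0.0231). In the low dose animals the signal was 1.46, 4.7 and 2.13, and in the middle dose animals 1.68, 2.55 and 0.77, so both groups lay within or near the control range. Ordered by group mean the levels ran middle, control, low and high dose, and the lower 3 did not differ beyond their spread.

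Ccl7 encodes monocyte chemoattractant protein 3, another ligand of CCR2. Its brighter probe read 0.725, 0.394 and 0.429 in the high dose animals, against 0.0713, 0.19 and 0.0566 in controls. Every high dose value was above the highest control, again control 2. Ccl7 rose 5.43-fold (log2 2.44 ± 0.58, adjusted p = 0.00924), and by a smaller log2 1.57 with normexp background correction (0.0011). The second probe read 0.572, 0.321 and 0.339 at the high dose, against 0.0624, 0.139 and 0.046 in controls. Its log2 change was 2.43 ± 0.56 (adjusted p = 0.00801 with every probe fitted on its own), so the probes of Ccl7 gave like changes. Low dose animals read 0.0724, 0.203 and 0.0952 on the brighter probe and middle dose animals 0.0862, 0.106 and 0.0309. The lowest of these, middle 3, was the only array of 12 on which the brighter probe was not well above background.

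Ccl3 encodes macrophage inflammatory protein 1-alpha, a ligand of CCR1. Its relative signal was 4.06, 2.8 and 3.53 in the high dose animals, against 0.624, 0.749 and 0.392 in controls. Ccl3 rose 6.03-fold (log2 2.59 ± 0.53, adjusted p = 0.00441), with no overlap between these groups. The low dose animals were split: low 1 read 0.582, near the controls, while low 2 and low 3 read 3.05 and 2.39. Middle dose animals read 0.65, 0.876 and 0.481, close to the controls. By group mean the order was control (0.588 ± 0.181), middle (0.669 ± 0.198), low (2.01 ± 1.28) and high dose (3.47 ± 0.633; SD, n = 3 each), and only the high dose stood apart from control and from the middle dose beyond the spread.

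Ccl4 encodes macrophage inflammatory protein 1-beta, an attractant of monocytes and lymphocytes. It showed the smallest of the 7 changes, with 0.443, 0.342 and 0.387 in the high dose animals against 0.118, 0.228 and 0.115 in controls. Ccl4 rose 2.66-fold (log2 1.41 ± 0.36, adjusted p = 0.0127), and by a smaller log2 1.01 with normexp background correction (0.00232). Low dose animals read 0.107, 0.218 and 0.175 and middle dose animals 0.0981, 0.152 and 0.0656. Both of these groups overlapped the controls, and middle 3 was the lowest of the 12 animals.

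Cxcl1 encodes a main neutrophil attractant of rodents, a ligand of CXCR2. Its relative signal was 2.4, 1.05 and 1.11 in the high dose animals, against 0.169, 0.483 and 0.118 in controls, without overlap. Cxcl1 rose 6.62-fold (log2 2.73 ± 0.74, adjusted p = 0.0172). Low dose animals read 0.303, 2.44 and 0.66, so that low 2 stood at the level of high 1, the highest of the high dose animals. Middle dose animals read 0.178, 0.27 and 0.12, all below every low dose animal and within the control range.

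Cxcl2 encodes the related CXCR2 ligand known as macrophage inflammatory protein 2. Its relative signal was 0.384, 0.259 and 0.234 in the high dose animals, against 0.0297, 0.107 and 0.0182 in controls. Although the groups did not overlap, the log2 change of 2.88 ± 1.06 was not called (adjusted p = 0.0592). The low dose animals read 0.0279, 0.372 and 0.784, and low 3 was thus the highest of all 12 animals. Middle dose animals read 0.0232, 0.0445 and 0.0201. The probe was well above background in all 3 high dose animals, in 2 low dose, in 1 middle dose and in 1 control animal, so it entered the tests only through the high dose group. The values of the other arrays lie close to the background.

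Cxcl10 encodes interferon-gamma-inducible protein 10, a ligand of CXCR3. It gave the smallest standard error of the 7, with 5.16, 4.72 and 5.66 in the high dose animals against 1, 2.13 and 0.971 in controls. Cxcl10 rose 4.05-fold (log2 2.02 ± 0.30, adjusted p = 0.000825). Low dose animals read 0.992, 1.83 and 1.24 and middle dose animals 1.1, 1.25 and 0.939. All 6 lay within or just below the control range, below every high dose animal by a wide margin.

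Leaving out single arrays changed some of the calls at 600 mg/kg against control, but no direction. Without control 1 only 3 of the 7 were called (Ccl3, Ccl7 and Cxcl10), with Ccl2 at an adjusted p of 0.0747, Ccl4 at 0.0501 and Cxcl1 at 0.0573. Ccl2 also missed the threshold without control 3 (0.0836), high 1 (0.0844) or high 3 (0.0506), and Cxcl1 without control 3 (0.0629) or high 1 (0.0657). Cxcl2 in turn was called without control 2 (0.0421), low 1 (0.00676) or low 3 (0.0379). Ccl3, Ccl7 and Cxcl10 stayed called whichever array was left out.

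At 600 mg/kg against 300 mg/kg, the 6 chemokines other than Cxcl2 all rose, where 22.5% of tested genes were called and 9.61% were called higher. In these 6 the groups did not overlap, which held in that direction for 15.5% of tested genes. Their median log2 change was 2.55, beside -0.0227 over all tested genes. Cxcl10 had the lowest adjusted p (log2 2.24 ± 0.30, adjusted p = 0.00075), followed by Ccl4 (1.97 ± 0.36, 0.004) and Ccl7 (2.92 ± 0.58, 0.00598). Ccl3 changed by 2.40 ± 0.53 (0.0101), Ccl2 by 2.70 ± 0.62 (0.0122) and Cxcl1 by 2.98 ± 0.74 (0.0173). With normexp background correction the log2 change was 1.81 in Ccl7 (0.000697) and 1.32 in Ccl4 (0.000719). Cxcl2, which was well above background in only 1 of the 3 middle dose animals, had a fitted change of 3.38 ± 1.06 and an adjusted p of 0.0453, and missed the threshold without any one of 9 arrays. These were controls 1 and 3, low 2 and every middle and high dose animal, with adjusted p values from 0.0526 to 0.123. Cxcl1 missed it without middle 3 (0.0506) or high 1 (0.0664).

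This step could also be read on a single slide, since slide 4 held middle 3 beside the 3 high dose animals. The mean of the high dose animals lay above middle 3 by a log2 difference of 2.46 in Cxcl10, 2.57 in Ccl4, 2.83 in Ccl3 and 3.56 in Cxcl1. The difference was 3.65 in Ccl2. In Ccl7 and Cxcl2 the middle 3 spot was not well above background, so that the difference was at least 4.01 in Ccl7 and at least 3.23 in Cxcl2, taking for middle 3 the higher of its own signal and the lowest signal well above background on that array. The nearest high dose animal was 2.33 above middle 3 in Cxcl10 and at least 2.94 above it in Cxcl2. For every chemokine except Ccl3, Cxcl1 and Cxcl2, middle 3 was the lowest of all 12 animals, so the difference within this slide is larger than the group difference. With the slide as a block 5 of the 6 chemokines other than Cxcl2 were called, beside 9.75% of tested genes, and Cxcl1 was at an adjusted p of 0.0562.

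**Figure D2:**
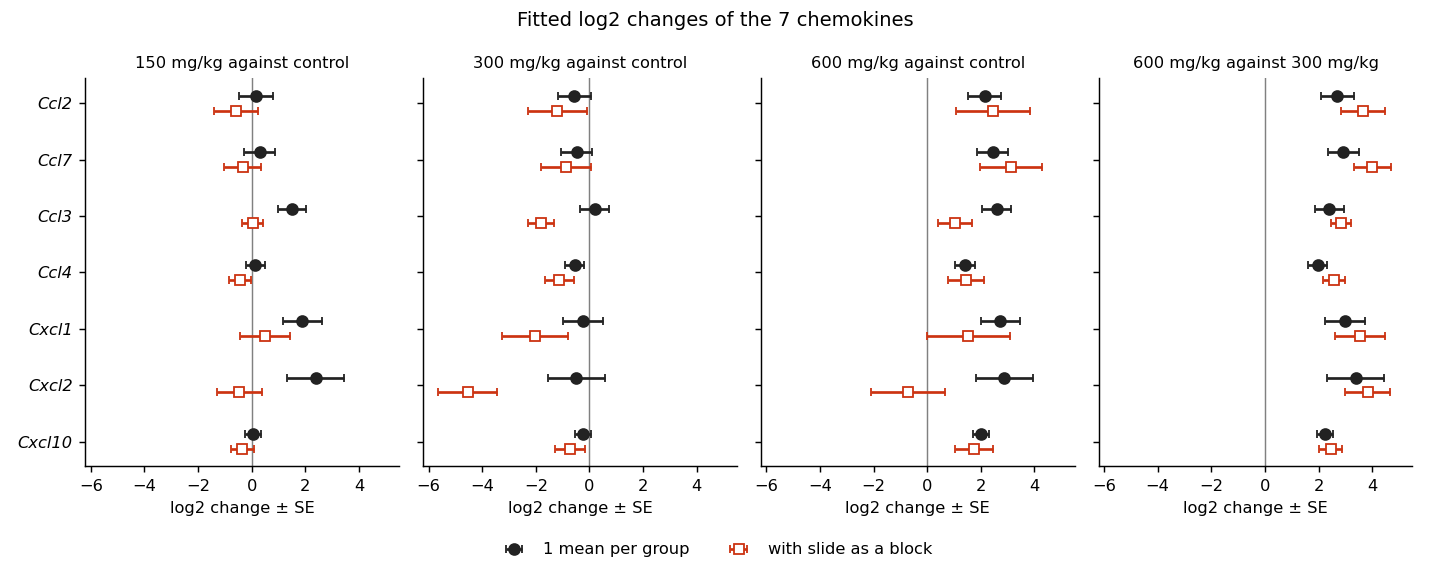
Fitted log2 changes with limma standard errors (horizontal axis) of the 7 chemokines (vertical axis) in 4 comparisons. Filled circles come from the fit with 1 mean per group and open squares from the fit that adds the slide as a block. At 600 mg/kg against 300 mg/kg every value lies above 0 in both fits, with Ccl7 at 2.92 without the block and 4.01 with it, while at 600 mg/kg against control Cxcl2 is 2.88 without the block and -0.72 with it.

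The comparison of 600 mg/kg with 150 mg/kg was added after the values were seen. Here 4 of the 7 rose, where 27% of tested genes were called and 13.5% were called higher: Cxcl10 (log2 1.98 ± 0.30, adjusted p = 0.00123), Ccl7 (2.15 ± 0.58, 0.0216), Ccl4 (1.28 ± 0.36, 0.0255) and Ccl2 (1.98 ± 0.62, 0.0398). In these 4 genes the groups did not overlap, beside 23.5% of tested genes in that direction. Ccl3 (1.08 ± 0.53, 0.161), Cxcl1 (0.84 ± 0.74, 0.435) and Cxcl2 (0.50 ± 1.06, 0.76) were not called, and their groups overlapped through low 2, low 3 or both. The count was 1, Cxcl10 alone, without low 1, low 3 or high 1, and 2 without high 3. With the slide as a block it was 0, beside 6.33% of tested genes.

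At 150 mg/kg against control, 0 of the 7 were called, as were 0.101% of tested genes. The 7 changes were uneven. Cxcl2 (log2 2.38 ± 1.06, adjusted p = 0.494), Cxcl1 (1.89 ± 0.74, 0.43) and Ccl3 (1.51 ± 0.53, 0.381) had an unadjusted p under 0.05, as did 10.1% of tested genes, and the other 4 had log2 changes of 0.04 to 0.29. Low 2 and low 3 carried the larger values, while low 1, the low dose animal on the control slide, did not. Set against the 3 controls of its own slide, low 1 differed by log2 0.51 in Cxcl1 and 0.03 in Ccl3, and the Cxcl2 probe was not well above background in low 1. Without low 1, Ccl3 was called at the low dose (log2 2.25, adjusted p = 0.0255). Animal and slide cannot be told apart here, because each of the 3 low dose animals was on a different slide.

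At 300 mg/kg against control, 0 of the 7 were called, where 13% of tested genes were, and 0 had an unadjusted p under 0.05, where 30.4% of tested genes did. Their log2 changes were small, from -0.56 in Ccl2 to 0.19 in Ccl3, and 6 of the 7 had a value below 0. Control 2 bore on these signs: without it Ccl2 and Ccl7 were each at 0.04, Cxcl10 at 0.14, Cxcl2 at 0.24 and Cxcl1 at 0.34.

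At 300 mg/kg against 150 mg/kg, 0 of the 7 were called, beside 0.231% of tested genes, and all 7 log2 changes were below 0. Of these, Cxcl2 (-2.87 ± 1.06, adjusted p = 0.239), Cxcl1 (-2.14 ± 0.74, 0.216) and Ccl3 (-1.32 ± 0.53, 0.269) had an unadjusted p under 0.05, as did 16% of tested genes. In Cxcl1 each middle dose animal lay below each low dose animal, as in 6.19% of tested genes, and in the other 6 the groups overlapped. Slides 2 and 3 each paired a middle with a low dose animal. On slide 2, middle 1 lay below low 2 in all 7 genes, by -0.73 in Cxcl10 to -3.78 in Cxcl1 on the log2 scale. In Cxcl2 the middle 1 spot was not well above background, and its log2 difference had a bound of -3.58. On slide 3, middle 2 lay below low 3 by -4.14 in Cxcl2, -1.45 in Ccl3, -1.29 in Cxcl1 and -0.20 in Ccl4, and differed by 0.01 to 0.26 in Cxcl10, Ccl7 and Ccl2. Without low 1, Ccl3 (-2.06, adjusted p = 0.03) and Cxcl2 (-4.30, 0.0353) were called.

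**Figure D3:**
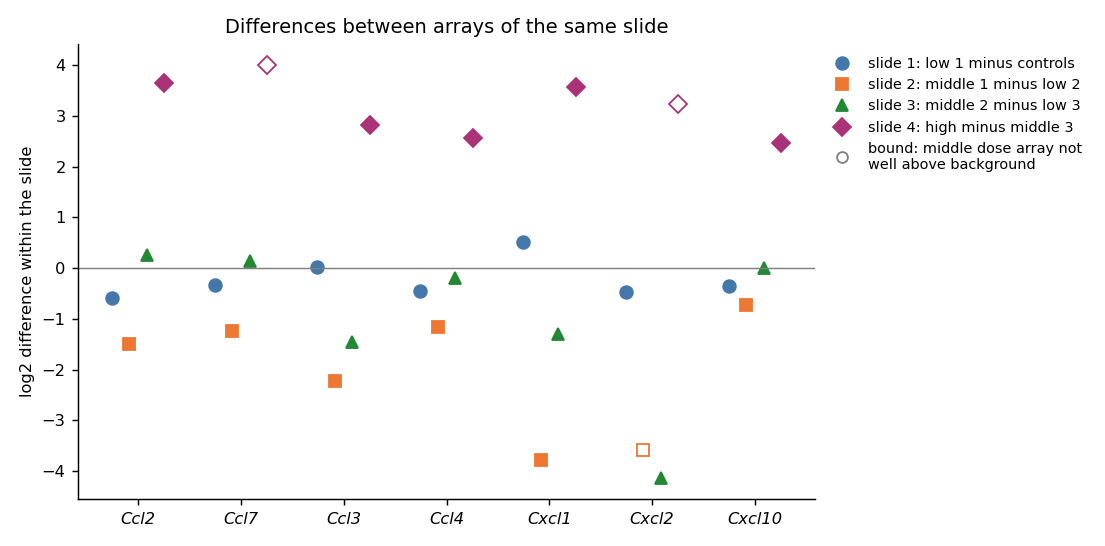
Log2 differences between arrays of the same slide (vertical axis) for the 7 chemokines (horizontal axis), with 1 point per slide. Open symbols are bounds, where the middle dose array was not well above background, and on slide 1 the Cxcl2 spot was not well above background in low 1 or in controls 1 and 3. The high dose mean lies above middle 3 for all 7 genes, from 2.46 in Cxcl10 to at least 4.01 in Ccl7, and on slide 3 Cxcl2 is at -4.14.

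Across all doses, limma's F-test called 6 of the 7 chemokines, where 34.2% of tested genes were called. Cxcl10 had the lowest adjusted p (0.00127), and Cxcl2 was not called (0.0593). With the slide as a block Ccl3 (0.0183) and Ccl4 (0.0463) were called, where 4.84% of tested genes were. Cxcl2, which entered the tests only through the high dose group, was then at 0.0353. The blocked contrast of high dose with control cannot compare arrays of 1 slide, and is built from low 1 against the controls, the low and middle dose arrays of slides 2 and 3, and middle 3 against the high dose. Low 2 and low 3 enter this chain. With the block the log2 change at 600 mg/kg against control was 1.03 ± 0.63 in Ccl3, 1.53 ± 1.54 in Cxcl1 and -0.72 ± 1.39 in Cxcl2. In the other 4 it lay nearer the unblocked value: 2.45 ± 1.37 in Ccl2, 3.13 ± 1.16 in Ccl7, 1.44 ± 0.68 in Ccl4 and 1.74 ± 0.71 in Cxcl10, with adjusted p values from 0.179 to 0.34.

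The chemokines varied far more between animals of a group than most genes. In controls the SD of log2 signal was 0.482 for Ccl3, the lowest of the 7, and 1.32 for Cxcl2, the highest, against a median of 0.0658 over all tested genes. The Cxcl2 probe was well above background in only 1 control, so its SD rests largely on values close to the background. Ccl2, well above background in all 3 controls, was next at 1.07. At the high dose the SD was 0.132 for Cxcl10 and 0.666 for Cxcl1, against a median of 0.0699. They also varied together. Control 2 was the highest control for all 7 genes, middle 2 the highest middle dose animal and middle 3 the lowest. Over the 12 animals, Ccl2 and its chromosomal neighbour Ccl7 had a Pearson r of 0.99, and their deviations from the group means also correlated at 0.99. Cxcl1 and its neighbour Cxcl2 correlated at 0.90 (deviations 0.73), and Ccl3 and Ccl4 at 0.87 (deviations 0.81). Ccl3 was closer to Cxcl1 (0.94) and Cxcl2 (0.93) than to Ccl4, and the lowest of the 21 pairs was Cxcl2 with Cxcl10 (0.68). Cxcl2 was well above background on only 7 of the 12 arrays and entered the tests only through the high dose group. Its correlations thus rest partly on values close to the background. The points share arrays and slides, so all these correlations are descriptions.

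The 8 named genes most like the mean standardized profile of the chemokines, of 11009 candidates over the 12 arrays, were Tnf, Atf3, Enc1, Icam1, Rnd1, Il1b, Birc3 and Rassf4, with Pearson r from 0.978 to 0.932. Tnf, the inflammatory cytokine, was well above background only in the 3 high dose animals and entered the tests only through them. Tnf read 0.0666, 0.0404 and 0.053 there, against 0.0215, 0.0328 and 0.0114 in controls, and was at least 1.57-fold higher. In the other groups its signal was not well above background, so its r of 0.978 and its place in the ranking rest largely on such values. Il1b, which encodes interleukin-1 beta, read 2.85, 1.57 and 1.98 in the high dose animals, against 0.457, 0.613 and 0.305 in controls (log2 2.23 ± 0.48, adjusted p = 0.0058). Like Ccl3, it read higher in low 2 (1.82) and low 3 (1.74) but not in low 1 (0.527), and Il1b was the gene most like Ccl3 (r 0.99). Icam1, the endothelial and epithelial ligand of leukocyte integrins, was most like Ccl2 (0.975) and Ccl7 (0.979). Birc3, an NF-kB target that inhibits apoptosis signalling, was most like Ccl4 (0.977). For Cxcl1 it was Nfkbiz (0.947), which encodes an inhibitor-related NF-kB cofactor, for Cxcl2 the immediate early gene Egr2 (0.975) and for Cxcl10 the coactivator gene Pprc1 (0.976). The value for Cxcl2 rests partly on arrays where its probe was not well above background.

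**Figure D4:**
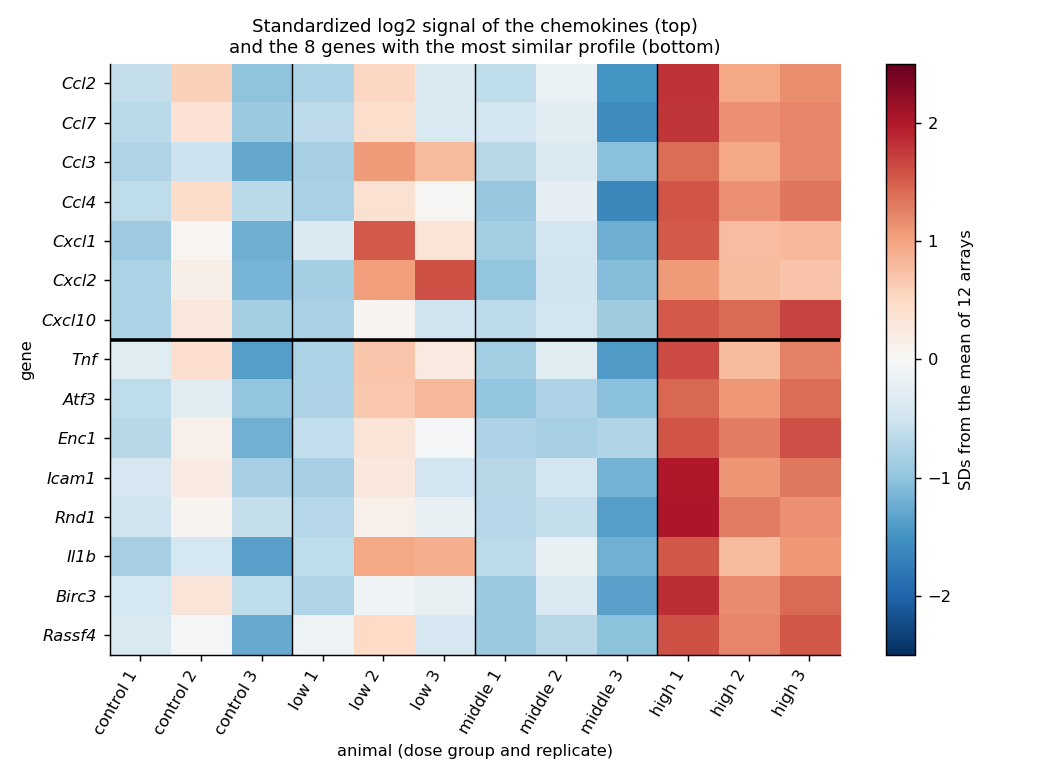
Log2 signals standardized per gene over the 12 arrays (colour, in SDs from the mean) for the 7 chemokines above the thick line and the 8 most similar genes below it (rows), by animal (columns). High 1 to 3 are red throughout and middle 3 is blue in every row. Low 2 and low 3 both lie above the mean for Ccl3, Ccl4, Cxcl1, Cxcl2, Tnf, Atf3 and Il1b, with Ccl4 in low 3 only at 0.0203. Low 2 lies above the mean in every row but Birc3. The rows of Cxcl2 and Tnf include arrays on which the probe was not well above background.

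Other chemokines had a median log2 change of 0.37 at 600 mg/kg against control. Of 26 on the array, 19 were tested, and 9 rose and 2 fell. For this and each list below, the share over all tested genes was 34.8% called, 18% higher and 16.8% lower. By fitted change the first 3 were Ccl12, a CCR2 ligand of rodents, Cxcl13, a B cell attractant, and Ccl20, a ligand of CCR6. Ccl12 was well above background only in the high dose animals (0.144, 0.0512 and 0.0735) and was at least 2.45-fold higher there than in controls. It entered the tests only through that group, although it is among the 9. Cxcl13 read 2.17, 1.7 and 2.41 in high dose animals, against 0.541, 0.575 and 0.576 in controls (log2 1.88 ± 0.15, adjusted p = 2.92e-05). Ccl20 rose by log2 1.69 ± 0.28 (0.00155), while Ccl5 (-0.27 ± 0.09, 0.0345) and Cx3cl1 (-0.24 ± 0.08, 0.0349) fell. With the slide as a block Cxcl13 and Cxcl14 were still called, as was Ccl12, which entered the tests only through the high dose group.

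The receptors of the chemokines were mostly dim. Of 11 on the array and counted here, 5 were tested and 1 was called at 600 mg/kg against control. This was Ccr1, a receptor of CCL3, which read 0.0577, 0.0433 and 0.0576 in the high dose animals, against 0.0372, 0.0244 and 0.0103 in controls (log2 1.31 ± 0.40, adjusted p = 0.0278). It was well above background in 1 of the 3 controls, and with the slide as a block its log2 change was 0.43 (adjusted p = 0.84), with 0 receptors called. Cxcr3 (-0.03 ± 0.08, 0.784), Cx3cr1 (0.34 ± 0.14, 0.0897), Cxcr4 (-0.02 ± 0.15, 0.936) and Ackr3 (-0.06 ± 0.09, 0.609) were not called at this dose, while Cx3cr1 was called at 300 mg/kg against control (log2 0.54, adjusted p = 0.0335). Ccr2, the receptor of CCL2 and CCL7, was well above background in 2 high dose animals only and was not tested. Cxcr1 and Cxcr2, the neutrophil receptors, and Ccr3, Ccr7 and Ackr2 were above background on 0 arrays.

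A list of genes of cytokines, their receptors, NF-kB and AP-1 was counted, many of which act upstream of chemokine genes. It also holds genes such as the NF-kB target Birc3. Of 22 tested genes of this list, 14 rose and 0 fell at 600 mg/kg against control. Their median log2 change over the 22 was 0.637 (0.566 with genes not above background in any control at their bound). Fosl1, an AP-1 subunit above background only in the high dose animals, was at least 4.99-fold higher. Atf3, a stress-induced transcription factor, rose by log2 2.12 ± 0.39 (adjusted p = 0.00255), with 2.9 and 3.25 in low 2 and low 3 against 0.963 in low 1. Fos, Egr1 and Jun were not called (log2 1.91, 1.32 and 0.50, with adjusted p of 0.187, 0.156 and 0.164). With the slide as a block their log2 changes were -2.32, -1.77 and -0.50. Fos read 4.35 and 4.48 in low 2 and low 3, against 0.632, 0.769 and 0.462 in the high dose animals. Among 6 tested adhesion molecules 4 rose and 1 fell. Sele, the endothelial selectin that slows passing leukocytes, was well above background only in the high dose animals and at least 12.4-fold higher there. Icam1 rose by log2 0.94 ± 0.18 (adjusted p = 0.00344) and Vcam1 by 0.86 ± 0.10 (0.000221), while Pecam1 fell (-0.28 ± 0.08, 0.0256). Of 21 interferon response genes 4 rose and 0 fell, with a median of 0.197; this count is close to the 18% of all tested genes called higher. The 3 largest were Gbp5 (0.69 ± 0.21, 0.0292), Gbp2 (0.60 ± 0.16, 0.0152) and Ifit2 (0.56 ± 0.17, 0.0307). With the slide as a block, the only calls were Fosl1 in the first of these lists and Sele in the adhesion list, with 0 in the interferon list. Over all tested genes 2.81% were called. Fosl1, Sele and Tnf entered the tests only through the high dose group, although the counts above include them.

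Markers of leukocytes were measured in the same arrays. Of 18 tested macrophage markers 12 rose and 0 fell at 600 mg/kg against control, with a median log2 change of 0.42, and the largest were Adgre1 (0.88 ± 0.07, 3.7e-05), Fcgr2b (0.77 ± 0.09, 0.00022) and Cd86 (0.73 ± 0.14, 0.0033). Under the slide block 1 of them, Cd14, was called. The summed relative signal of the 19 macrophage markers on the array was 72.3 to 82.4 at the high dose, against 58.4 to 64.9 in controls. At the middle dose it was 66.1 to 75.6, above the controls and overlapping the high dose, and at the low dose 63.7 to 69.2. For the 7 chemokines the sum was 16.6 to 28.2 at the high dose, against 2.87 to 8.9 in controls, 3.55 to 12.8 at the low dose and 2.43 to 5.24 at the middle dose. Bright genes weigh most in such sums, such as Ccl2 (15, 7.06 and 8.49 at the high dose) and the macrophage marker Lyz2 (22.2, 23.1 and 24.8). Of 16 neutrophil markers on the array and counted here 5 were tested, and 2 rose (Padi4 by 0.87 ± 0.24, 0.0172, and Ncf1 by 0.45 ± 0.05, 0.000172) and 1 fell (Mmp9, -0.31 ± 0.08, 0.0149). S100a9, which encodes a calgranulin subunit abundant in neutrophils, was well above background in 3 high dose animals and 1 control and was not called (0.74 ± 0.37, 0.149). Of the 11 neutrophil markers not tested, 9 were above background on 0 of the 12 arrays, among them the defining genes Mpo, Ngp, Camp, Ltf, Mmp8 and Cxcr2. The other 2 were above background on 1 array each, S100a8 in a high dose animal and Csf3r in a control. Under the slide block 0 of the neutrophil list were called, and Padi4 was at -0.23 (0.808). The relative signals of the 16 neutrophil markers summed to 2.44 to 2.82 at the high dose and 1.97 to 2.04 in controls. The largest rises in this sum were those of Padi4 (1.13, 0.74 and 0.821 against 0.567, 0.528 and 0.375 in controls) and Ncf1 (0.839, 0.805 and 0.847 against 0.615, 0.618 and 0.591). The untested genes added mostly values close to the background, so the sum does not describe neutrophil markers as a set. Of 9 tested lymphocyte markers 1 rose (Cd3d, 0.29 ± 0.09, 0.0228) and 1 fell (Cd8a, -0.34 ± 0.10, 0.0293), and with the slide as a block 0 were called. Of the 12 cortex markers 10 fell, with a median of -0.443, led by the proximal tubule genes Miox (-0.69 ± 0.07, 7.69e-05) and Slc34a1 (-0.59 ± 0.05, 2.67e-05). Under the slide block 3 of them were called (Slc34a1, Hnf4a and Aqp1), while Miox was at an adjusted p of 0.0901 and Lrp2, the endocytic receptor megalin, at log2 0.04 (0.863). Of 7 medulla markers 2 rose, Slc5a3 (1.15 ± 0.15, 0.000413) and Kcnj1 (0.40 ± 0.07, 0.00183), and 0 fell, with 0 called under the slide block. The part of these cells in the chemokine changes was not tested.

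**Figure D5:**
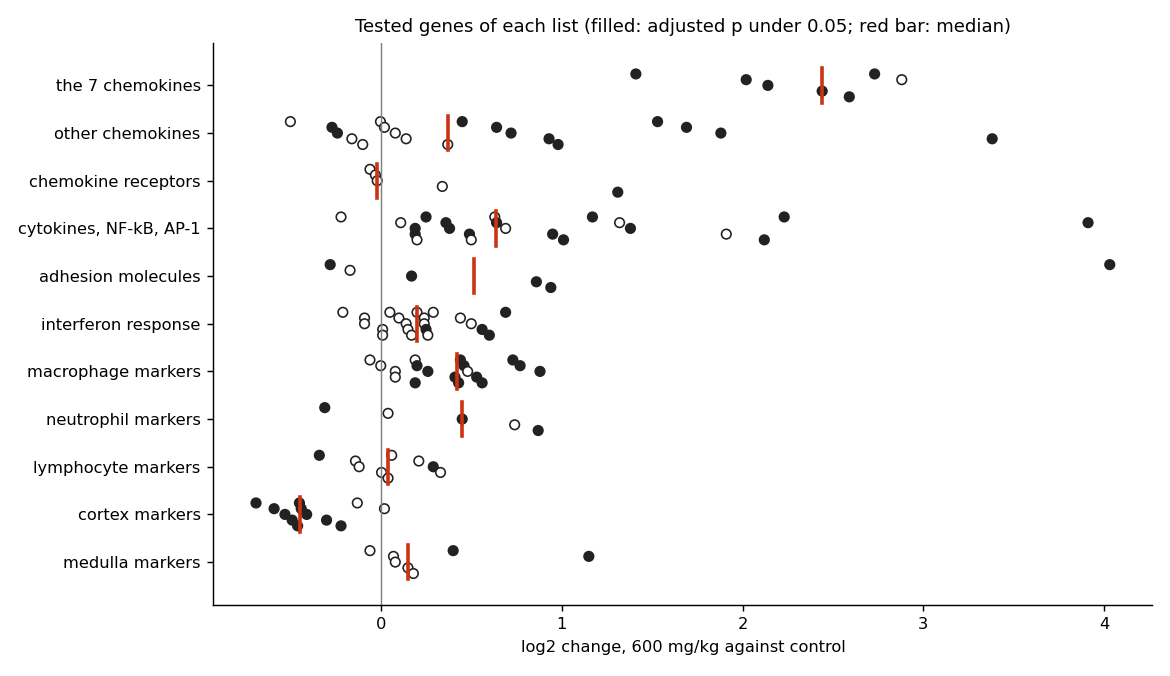
Log2 change at 600 mg/kg against control (horizontal axis) of every tested gene in each list (rows), with filled points for an adjusted p under 0.05 and red bars for medians. The 7 chemokines lie between 1.41 and 2.88, beside medians of 0.37 for other chemokines and 0.42 for macrophage markers. Points of Ccl12, Fosl1, Il1r1, Sele and Tnf are fitted values of probes not well above background in any control.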

How the data were processed

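The samples are 12 one-colour Agilent arrays (Cy3) of kidney cortex RNA, 3 animals in each of 4 dose groups taken from the sample titles, with the doses from the treatment text. Per the file headers, Feature Extraction 9.1.3.1 had subtracted a local background and detrended each array, and arrays were not scaled to each other. The processed, mean and background signals used are linear intensities, per the file headers, and spot marks (above background, saturated, outlier) are 0 or 1. The value table that the authors deposited is a linear ratio: processed signal, floored at 5, over 1 constant per array (58.91 to 68.47). Its column medians were 1.003 to 1.005 and it follows the scanner signal to within 5.162e-05%, so its scale, centring and direction are known.

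Log2 processed signals were averaged over the unmarked spots of a probe, less the 75th percentile over all probes of the array. The brightest probe stood for a gene. A gene was tested if some group had it well above background in all 3 animals, which 20758 of 35526 met. Names came from RefSeq by accession (10726 probes), symbol (5586) or older symbol (3730), and 20970 probes kept the array's name. The fit used limma 3.58.1 (R 4.3.3) with a mean for each group, over the 12 arrays, with two-sided tests and Benjamini-Hochberg adjustment within each comparison. An exact permutation test of 3 against 3 cannot go below p = 0.1 and was not used. The number of arrays limits the precision. Where no control array was well above background for a gene, its fold is a bound, taken per control array against the higher of its own signal and the lowest signal among probes well above background, and written as at least that many fold. The fits were tested on simulated data.

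The members and all lists were chosen with earlier results of these data known, as was the rule for naming genes: the 7 chemokines, every measured receptor (1 receptor and 1 neutrophil marker are not reported here), the 3 genes with the largest rise and 2 with the largest fall in each other list at 600 mg/kg against control, and the 8 genes most like the mean profile plus 1 per member. Cxcl14, Fos, Egr1, Jun and the genes named as absent or lost were chosen after their values were seen. Same-numbered animals did not deviate together (correlations of -0.225 to 0.116 over 18 pairs, against -0.242 to 0.279 for different numbers), so the numbers were not taken to pair animals. Alternatives covered scaling, background correction, the value table, filters, probe choice, the fit, slide and scan day, a 2-fold limit and each array left out.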

Additional observations from a re-analysis of the deposited data

How the results depend on the processing

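The rise of the chemokines at 600 mg/kg kept its direction under every alternative tried for 6 genes; Cxcl2 was the exception, with -0.72 against control and -0.25 against 150 mg/kg with the slide as a block. With that block the calls fell to 0 at 600 mg/kg against control, 0 at 600 mg/kg against 150 mg/kg and 3 by the F-test, and 6 were called at 600 mg/kg against 300 mg/kg. The 3 and the 6 include Cxcl2, which entered the tests only through the high dose group. Counts below also include it where it was called. With no filter on dim probes, 1 was called at 600 mg/kg against 150 mg/kg. Leaving out 1 array gave 3 to 7 calls at 600 mg/kg against control, 5 to 7 against 300 mg/kg, 1 to 4 against 150 mg/kg, 3 to 7 by the F-test, 0 to 1 at 150 mg/kg against control and 0 to 2 at 300 mg/kg against 150 mg/kg. The lowest counts came without control 1 at 600 mg/kg against control, without middle 3 or high 1 against 300 mg/kg, without low 1, low 3 or high 1 against 150 mg/kg and without high 1 by the F-test; the calls at the lower doses came without low 1. Cxcl2 at 600 mg/kg against 150 mg/kg ran from -0.92 to 1.48 without single arrays.

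Signs of uncalled changes turned more often. At 150 mg/kg against control the slide as a block gave -0.58 for Ccl2, -0.45 for Ccl4, -0.34 for Ccl7, -0.47 for Cxcl2 and -0.36 for Cxcl10. As a random block it gave -0.03 for Ccl2, -0.005 for Ccl4 and -0.05 for Cxcl10, and the scan day as a block gave -0.12 for Ccl2, -0.02 for Ccl7 and -0.09 for Cxcl10. Array weights gave -0.06 for Ccl2 and -0.07 for Cxcl10. Single arrays left out gave -0.31 to 0.75 for Ccl2, -0.09 to 0.45 for Ccl4, -0.14 to 0.82 for Ccl7 and -0.20 to 0.41 for Cxcl10. At 300 mg/kg against control Ccl3 was at -1.81 with the slide as a block, -0.17 as a random block and -0.03 with the scan day. Single arrays left out gave -0.07 to 0.41 for Ccl3, -0.99 to 0.04 for Ccl2, -0.83 to 0.06 for Ccl7, -0.67 to 0.34 for Cxcl1, -1.04 to 0.24 for Cxcl2 and -0.42 to 0.14 for Cxcl10. The cause was not tested.

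The replicate number as a block left 6 calls at 600 mg/kg against control and 6 against 300 mg/kg, where Cxcl2 moved to an adjusted p of 0.0525, and changed no other call. Cxcl2 was well above background on 7 of 12 arrays. It was called at 600 mg/kg against control with normexp background correction (log2 1.38, adjusted p = 0.0483). It was also called with only the compared groups fitted (log2 2.88, 0.0158). The SD of its log2 signal was 2.53 at the low dose, against 1.32 in controls and 0.38 at the high dose. Whether low signal or this spread kept Cxcl2 from being called was not tested. Normexp moved Cxcl2 to 1.61 against 300 mg/kg, and Ccl7 to 1.46 and Ccl4 to 0.89 against 150 mg/kg.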
